A study of Brassica napus with 30 samples.

Results

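Seeds of oilseed rape (Brassica napus) that had germinated for 36 h at 25 °C were compared with dry seeds, within each of 2 genotypes. The libraries were chosen by their labels: 3 of JY1605 at 36 h and 25 °C, 3 of JY1605 dry seeds, 3 of JY1621 at 36 h and 25 °C, and 3 of JY1621 dry seeds, 12 of the 30 in the series. The series studies temperature and germination in these genotypes, and the comparison here asks which transcripts a warm-germinated seed holds in other amounts than a dry one, and how far the genotypes share that change. Per the labels' protocols, total RNA of each sample came from 100 seeds, and the design text calls the libraries of a group biological replicates. The labels do not say whether they were drawn from separate seed lots, so p-values measure the spread between these samples, which may be technical. The labels name nothing else that sets the genotypes apart. Dry seeds were taken at zeitgeber time 0 and the 36 h seeds at zeitgeber time 12, counted in hours from lights on, so germination and time of day cannot be told apart.

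A dry seed carries messenger RNA that was made while it matured, much of it for storage proteins, oil-body proteins and the proteins that protect cells during drying. When the seed takes up water, it breaks down a large part of this stored RNA and transcribes genes for translation, cell wall growth and the use of its oil and protein reserves. Oilseed rape is an allotetraploid, with an A subgenome from turnip-type Brassica rapa and a C subgenome from cabbage-type Brassica oleracea, so most genes exist as a homoeologous copy in each.

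The deposited table holds raw counts for 100919 gene models, and each ID names a chromosome of the A subgenome (A01 to A10) or of the C subgenome (C01 to C09), or a scaffold with no place on them, with a number that runs along it. The files do not pair the IDs with gene names, and a RefSeq table of 123214 genes from another assembly held 0 of them. No gene roles are therefore given, the labelled tissue was not checked against marker genes, and the groups described are chromosomes, subgenomes and classes of change. Total counts ran from 14250480 to 78251632 in the 12 libraries. The deepest was replicate 1 of JY1621 at 36 h. Log2 CPM (counts scaled to a library total of 1000000) of replicates correlated at 0.972 to 0.987 (Pearson, across gene models), and 12 of the 12 libraries were closest to a library of their own group. Reads that match both homoeologous copies may have been counted for either, so the level of a single copy is uncertain. In whole-seed RNA, fewer cells of a type and less RNA per cell cannot be told apart.

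Germinated seeds spread their transcripts over many more gene models than dry seeds did. The 100 most abundant gene models of each JY1605 library took 8.70%, 8.40% and 8.18% of its counts at 36 h, against 28.9%, 28.9% and 29.6% in dry seeds. In JY1621 they took 8.56%, 8.29% and 8.55% at 36 h, against 28.7%, 28.3% and 27.3% in dry seeds. The 36 h and dry libraries did not overlap in either genotype, while the 36 h libraries of the genotypes overlapped. The single most abundant gene model took 0.418% ± 0.0366 of the counts at 36 h and 2.39% ± 0.207 in dry seeds of JY1605, and 0.328% ± 0.00826 at 36 h and 1.41% ± 0.142 in dry seeds of JY1621 (SD, n = 3 each).

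The number of gene models needed to hold 50% of the counts was 3644 ± 90.4 at 36 h and 884 ± 44.3 in dry seeds of JY1605. In JY1621 it was 3255 ± 42.8 at 36 h and 983 ± 59.0 in dry seeds (SD, n = 3 each). Gene models that reached 1 CPM numbered 45096 ± 63.1 at 36 h and 36533 ± 359 in dry seeds of JY1605, and 42520 ± 177 at 36 h and 37707 ± 256 in dry seeds of JY1621 (SD, n = 3 each). By each of these measures every 36 h library lay on the same side of every dry library of its genotype (exact two-sided permutation test, p = 0.1 for each, the smallest that 3 libraries against 3 allow, so no such test can pass 0.05). JY1605 thus had more gene models at 1 CPM than JY1621 in germinated seeds and fewer in dry seeds, and the libraries of the genotypes did not overlap at either stage.

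**Figure D1:**
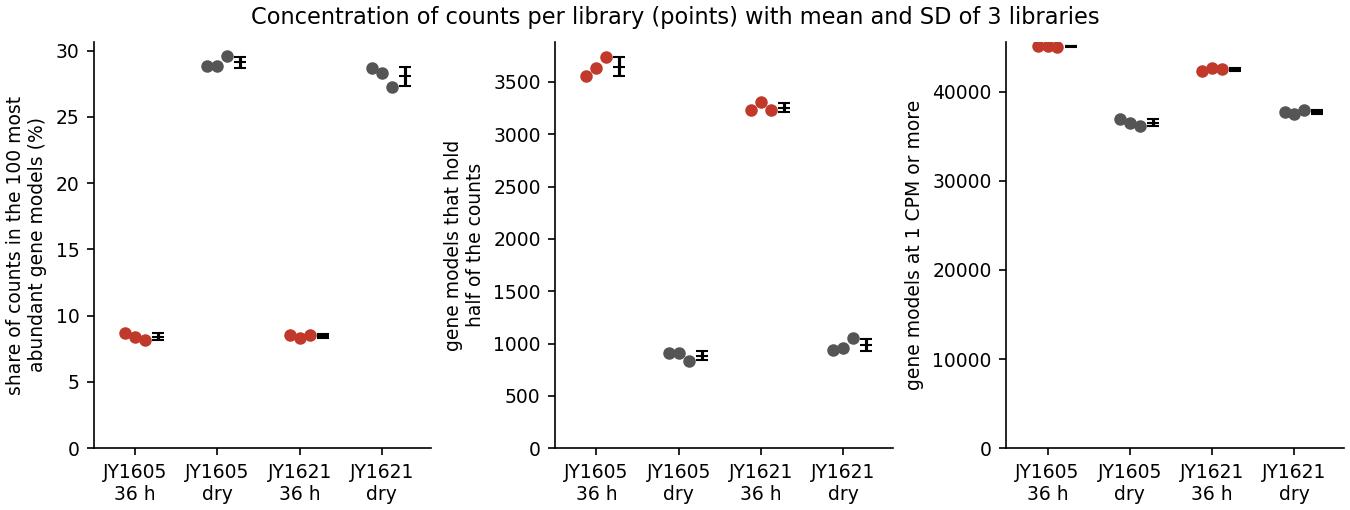
Share of counts in the 100 most abundant gene models (left, %), number of gene models that hold 50% of the counts (middle) and number at 1 CPM or more (right), for 36 h 25 °C and dry libraries of JY1605 and JY1621. Points are libraries, and the bar beside them is the mean with its SD (n = 3). All 36 h libraries lie at 8.18% to 8.70% in the left panel, and all dry libraries at 27.3% to 29.6%.

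The gene models most abundant in dry seeds of one genotype were also abundant in dry seeds of the other, and nearly all were lower after germination. To keep choice and measurement apart, the 100 most abundant gene models of one genotype's dry seeds were followed in the other genotype. The 100 chosen in dry JY1621 seeds held 1.07%, 1.25% and 0.983% of the counts of JY1605 at 36 h, against 26.2%, 26.3% and 26.9% in dry JY1605 seeds. The 100 chosen in dry JY1605 seeds held 2.62%, 2.27% and 2.75% of the counts of JY1621 at 36 h, against 25.1%, 24.8% and 23.9% in dry JY1621 seeds. In each case 97 of the 100 passed the test as lower and 0 as higher, where 24.8% of all tested gene models were lower in JY1605 and 20.0% in JY1621. Their median log2 fold change (36 h over dry) was -6.80 in JY1605 and -4.77 in JY1621, where the medians of all tested gene models were 0.36 and 0.18.

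The gene models most abundant in germinated seeds were followed in the same way. The 100 gene models most abundant in JY1605 at 36 h held 6.03% ± 0.107 of the counts of JY1621 at 36 h and 3.29% ± 0.0897 in dry JY1621 seeds (SD, n = 3 each), and there 44 were higher, 4 lower and 52 not called, where 26.2% of all tested gene models were higher and 20.0% lower. Those most abundant in JY1621 at 36 h held 6.01% ± 0.190 of the counts of JY1605 at 36 h and 10.2% ± 0.172 in dry JY1605 seeds (SD, n = 3 each). Of these, 33 were higher, 27 lower and 40 not called in JY1605, which is near the shares over all tested gene models there, 36.6% higher and 24.8% lower.

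Across all gene models, germination changed a large part of the transcriptome in both genotypes, and more of it in JY1605. Calls rest on an adjusted p under 0.05 together with a change of 1 or more log2 units (edgeR's quasi-likelihood test with Benjamini-Hochberg adjustment over the 57945 gene models tested). In JY1605, 21202 gene models were higher at 36 h than in dry seeds (36.6% of those tested) and 14354 lower (24.8%), together 61.4%. In JY1621, 15187 were higher (26.2%) and 11599 lower (20.0%), together 46.2%. The balance of directions depends on how the libraries are scaled, here by TMM factors, which allow for differences in composition. When scaled by library size alone, JY1605 had 28303 higher and 10170 lower gene models and JY1621 had 21958 higher and 6765 lower, and the median log2 fold change of all tested gene models moved by 0.65 in JY1605 and 0.49 in JY1621. The share of higher calls was 59.6% in JY1605 and 56.7% in JY1621 with TMM factors, and 73.6% in JY1605 and 76.4% in JY1621 without them.

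The changes were also larger in JY1605. The median log2 fold change of the higher calls was 2.63 in JY1605 and 2.08 in JY1621, and that of the lower calls was -2.49 in JY1605 and -1.67 in JY1621. Of the lower calls, 2809 (19.6%) in JY1605 and 1988 (17.1%) in JY1621 lie in stretches of neighbouring gene models or on unplaced scaffolds, described with the chromosomes. These stretches and scaffolds hold 3153 of the 57945 gene models tested. Outside the stretches and scaffolds the medians of the lower calls were closer, at -2.12 in JY1605 and -1.81 in JY1621. The stretches were chosen for a more negative change in JY1605, so leaving them out brings the genotypes closer by construction. Gene models at least 64-fold higher at 36 h numbered 3852 in JY1605 and 885 in JY1621, and those at least 64-fold lower numbered 520 in JY1605 and 96 in JY1621, by the fitted estimate. At 16-fold or more JY1605 had 6626 higher and 2830 lower gene models, and JY1621 had 2656 higher and 869 lower. By this estimate large rises outnumbered large falls in both genotypes at each of these folds. The estimate has no finite error where a group has no count. Gene models with at most 3 counts over the dry libraries and at least 1 CPM in each 36 h library numbered 3175 in JY1605 and 534 in JY1621. How far such gene models, and the filter on low counts, shape the excess of large rises and the gap between the genotypes was not tested.

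The called gene models accounted for a large share of all transcripts, also when each set was measured in the genotype that did not choose it. Gene models that were lower in JY1621 held 8.84% ± 0.347 of the counts of JY1605 at 36 h and 55.8% ± 0.481 in dry JY1605 seeds (SD, n = 3 each). Those higher in JY1621 held 35.2% ± 0.768 in JY1605 at 36 h and 6.42% ± 0.140 in dry JY1605 seeds. The sets called in JY1605 behaved alike in JY1621, with a smaller contrast. Its lower calls held 23.2% ± 1.05 of the counts of JY1621 at 36 h and 61.8% ± 0.470 in dry JY1621 seeds, and its higher calls held 29.2% ± 1.10 at 36 h and 7.67% ± 0.101 in dry seeds (SD, n = 3 each).

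**Figure D2:**
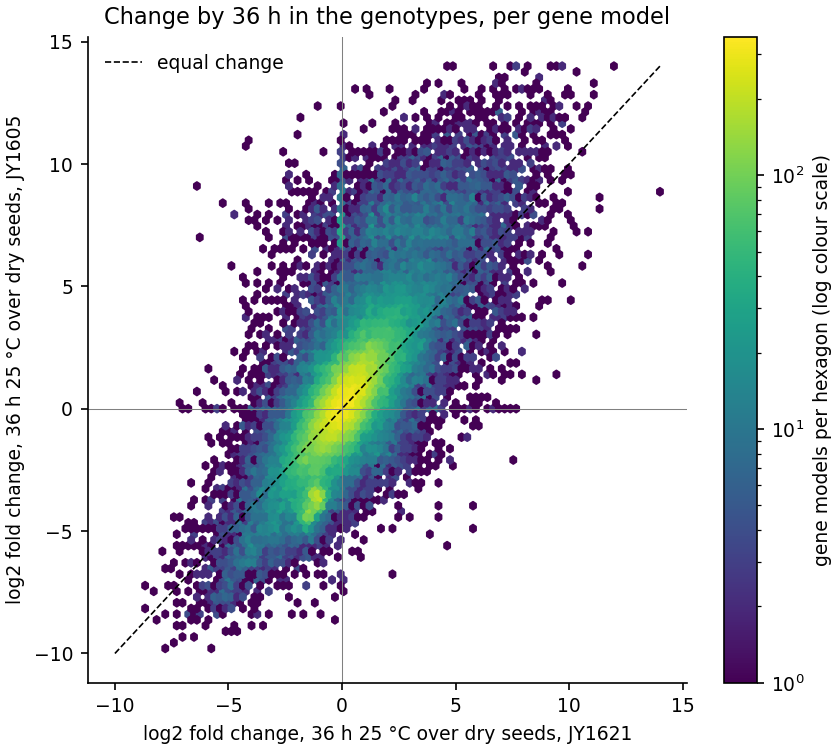
Log2 fold change of each tested gene model at 36 h and 25 °C over dry seeds in JY1605 (vertical axis) against that in JY1621 (horizontal axis), with the number of gene models per hexagon on a log colour scale and equal change as a dashed line. Most gene models lie in the quadrants of shared direction (76.8% have the same sign), the cloud is steeper than the dashed line, and a dense spot lies near -3.69 in JY1605 and -1.16 in JY1621, the medians of the 3153 gene models in stretches and on scaffolds.

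The genotypes shared most of the direction of change. Of the tested gene models, 11637 were higher at 36 h in both and 8442 lower in both, and the comparisons share no library. When scaled by library size alone, 17736 rose in both and 4590 fell in both. Those higher in both were 54.9% of the gene models higher in JY1605, where 26.2% of all tested were higher in JY1621. They were 76.6% of those higher in JY1621, where 36.6% of all tested were higher in JY1605. Those lower in both were 58.8% of the gene models lower in JY1605, where 20.0% of all tested were lower in JY1621. They were 72.8% of those lower in JY1621, where 24.8% of all tested were lower in JY1605. The log2 fold changes of the genotypes correlated at 0.740 across the 57945 gene models (Pearson, a description, since gene models of a library are not independent). The shared fraction was higher among large changes: of the gene models called with a log2 fold change of at least 4 in either direction, 73.4% of 9456 in JY1605 were called the same way in JY1621, and 93.3% of 3525 in JY1621 were called the same way in JY1605. At a log2 fold change of at least 6 it was 66.3% of 4372 in JY1605 and 95.8% of 981 in JY1621. In all, 840 gene models were called opposite ways.

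Where both genotypes changed in the same direction, the estimate was more often larger in JY1605. It was larger there for 74.7% of the gene models higher in both and for 78.6% of those lower in both, against 67.7% of all tested. Of the gene models lower in both, 1960 (23.2%) lie in 5 stretches of neighbouring gene models or on unplaced scaffolds, which are described with the chromosomes, and outside these the share was 72.5%. The stretches and scaffolds hold 3153 of the 57945 gene models tested. By the test of the difference itself, 2885 of the shared higher gene models had a larger rise in JY1605 and 389 a larger rise in JY1621. Of the shared lower gene models, 3916 had a larger fall in JY1605 and 233 a larger fall in JY1621. Outside the stretches and scaffolds these counts were 2108 and 232. Since the stretches were chosen for a more negative change in JY1605, leaving them out lowers the counts and shares of JY1605 by construction. For 1990 of the shared higher and 1626 of the shared lower gene models, the 95% interval of the difference lay within 1 log2 unit on either side of 0, which bounds how far the genotypes can differ.

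BnaA06G0084300ZS, on A06, and BnaC08G0461900ZS, on C08, had the largest shared rises by the fitted estimate, which has no finite error where a group has no count, among gene models whose mean over the 12 libraries was 8 CPM or more. BnaA06G0084300ZS stood at 555, 485 and 576 CPM at 36 h in JY1605, against 0 counts in each of the 3 dry libraries. In JY1621 it stood at 104, 170 and 122 CPM at 36 h, against 0, 1 and 0 counts in dry seeds. The transcript was thus all but undetected in dry seeds and abundant in every 36 h library, and the 36 h levels of JY1605 lay above those of JY1621 without overlap. In counts summed over libraries, its level at 36 h was at least 8727-fold higher in JY1605, against a floor of 3 counts over the group, and 6529-fold higher in JY1621, with an exact binomial 95% interval of 1172 to 257917 (counting error only). Its adjusted p was 2.03e-23 in JY1605 and 5.06e-21 in JY1621 (edgeR's quasi-likelihood test with Benjamini-Hochberg adjustment).

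The same gene model was still low after 8 h at 25 °C, at 0.418 ± 0.230 CPM in JY1605 and 0.920 ± 0.381 CPM in JY1621 (SD, n = 3 each). After 36 h at 8 °C it stood at 0.0834 ± 0.0282 CPM in JY1605 and 1.58 ± 0.181 CPM in JY1621 (SD, n = 3 each). Both levels are far under those of 36 h at 25 °C. These bounds rest on the depth of the dry libraries. Without replicate 1 or replicate 2 of the dry seeds the bound in JY1605 was 5744-fold and 5511-fold. In JY1621 the value without replicate 3 of the dry seeds was 3802-fold, and without replicate 2, which held the only count, it was a bound of 1551-fold.

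BnaC08G0461900ZS stood at 41.9, 38.0 and 45.6 CPM at 36 h in JY1605, against 0 counts in each dry library. In JY1621 it stood at 9.65, 19.4 and 11.8 CPM at 36 h, also against 0 counts in each dry library. Its rise was at least 677-fold in JY1605, with the same floor, and at least 214-fold in JY1621, and its adjusted p was 7.94e-16 in JY1605 and 2.88e-13 in JY1621 (edgeR's quasi-likelihood test with Benjamini-Hochberg adjustment). Without replicate 1 or replicate 2 of the dry seeds the bound in JY1605 was 446-fold and 428-fold, and without replicate 3 of the dry seeds the bound in JY1621 was 125-fold. As with the model on A06, detection in every germinated library stood against none in dry seeds, and JY1605 lay above JY1621 at 36 h without overlap.

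BnaA05G0168700ZS, on A05, and BnaA01G0307200ZS, on A01, had the largest shared falls by the same rule. BnaA05G0168700ZS stood at 8.53, 11.4 and 3.07 CPM at 36 h in JY1605, against 2001, 1613 and 1854 CPM in dry seeds. In JY1621 it stood at 3.02, 2.01 and 5.05 CPM at 36 h, against 569, 505 and 548 CPM in dry seeds. It was thus abundant in every dry library, more so in JY1605, and low in every germinated one. Its log2 fold change was -8.51 ± 0.311 in JY1605 and -7.84 ± 0.349 in JY1621 (SE), with an adjusted p of 7.51e-15 in JY1605 and 7.59e-14 in JY1621. The difference between the genotypes was -0.67 ± 0.468 (SE), with an adjusted p of 0.247 (edgeR's quasi-likelihood test with Benjamini-Hochberg adjustment, all 3 values). After 8 h at 25 °C it already stood at 64.4 ± 5.30 CPM in JY1605 and 25.4 ± 2.46 CPM in JY1621 (SD, n = 3 each).

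BnaA01G0307200ZS stood at 2.33, 4.41 and 2.77 CPM at 36 h in JY1605, against 1566, 1466 and 1583 CPM in dry seeds. In JY1621 it stood at 11.5, 10.6 and 17.0 CPM at 36 h, against 1506, 1696 and 1720 CPM in dry seeds. The dry levels of the genotypes overlapped, while every 36 h library of JY1605 lay below every 36 h library of JY1621. The log2 fold change was -9.54 ± 0.280 in JY1605 and -7.48 ± 0.232 in JY1621, and their difference of -2.06 ± 0.364 (SE) passed the test with an adjusted p of 5.2e-05 (edgeR's quasi-likelihood test with Benjamini-Hochberg adjustment).

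**Figure D3:**
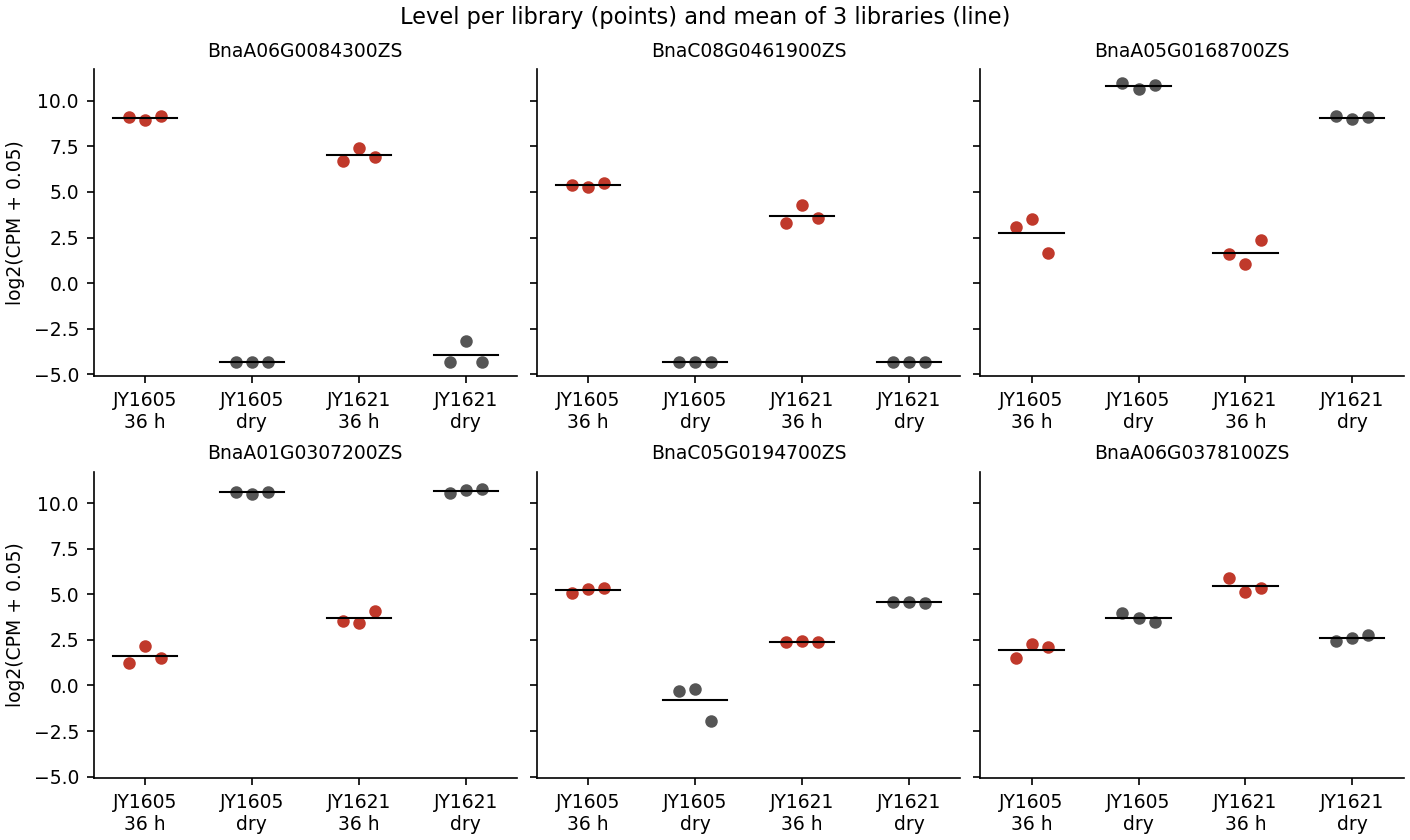
Level of the 6 named gene models in each 36 h 25 °C and dry library of JY1605 and JY1621, as log2 of CPM plus 0.05, with the mean of 3 libraries as a line. The 2 upper left models lie at or near 0 counts in dry seeds, BnaA05G0168700ZS and BnaA01G0307200ZS fall in both genotypes, and BnaC05G0194700ZS and BnaA06G0378100ZS change in opposite directions.

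Many gene models were called in 1 genotype only, which by itself does not show that the genotypes differ. There were 14637 called in JY1605 only and 5867 called in JY1621 only, and 16522 (28.5% of those tested) were called in neither. The difference of the 36 h change, JY1605 minus JY1621, was tested for each gene model. It was called for 21490 gene models, 37.1% of those tested, of which 10677 had a more positive change in JY1605 (18.4%) and 10813 a more negative one (18.7%). Among gene models called in JY1605 only, 8607 passed the test of the difference and 929 had a 95% interval within 1 log2 unit of 0. Among those called in JY1621 only, 2801 passed it and 714 had such an interval. The other 5101 called in JY1605 only and 2352 called in JY1621 only showed neither, so a difference was neither found nor bounded for them. Over all tested gene models the interval lay within 1 log2 unit of 0 for 12803, or 22.1%.

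The largest class of genotype differences was of gene models that rose in JY1605 and did not pass the test in JY1621. Of these, 4906 passed the test of the difference, with median log2 fold changes of 2.17 in JY1605 and 0.18 in JY1621. The next class comprised the 3916 gene models that fell in both and further in JY1605, with medians of -4.01 in JY1605 and -1.51 in JY1621. Of these, 1808 (46.2%) lie in the stretches or on scaffolds, and the other 2108 had medians of -4.16 in JY1605 and -2.03 in JY1621. The stretches and scaffolds hold 3153 of the 57945 gene models tested. A further 3701 fell in JY1605 and were not called in JY1621, with medians of -2.14 in JY1605 and -0.29 in JY1621, and 704 of them lie in the stretches or on scaffolds. The classes with the larger change in JY1621 were smaller, with 1495 gene models that rose and 1306 that fell there and were not called in JY1605. These medians describe gene models that were selected by the same tests.

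Opposite changes made up a small share of the tested gene models, and their number depends on the fold minimum. Of the tested gene models, 435 were higher at 36 h in JY1605 and lower in JY1621, and 405 were lower in JY1605 and higher in JY1621, 0.751% and 0.699% of those tested. With no fold minimum these counts were 1649 and 2256, and in a test against a log2 fold change of 1 (glmTreat) 141 and 171. Of the 405, 117 lie in the stretches or on scaffolds, which hold 3153 of the 57945 gene models tested. Among gene models called opposite ways whose mean over the 12 libraries was 8 CPM or more there were 26 of the first kind and 121 of the second. The opposite changes were of moderate size, with medians of 2.13 in JY1605 and -1.61 in JY1621 for the first kind, and -1.74 in JY1605 and 1.70 in JY1621 for the second.

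BnaC05G0194700ZS, on C05, stood at 33.8, 39.6 and 39.8 CPM at 36 h in JY1605, against 0.773, 0.827 and 0.211 CPM in dry seeds. In JY1621 it stood at 5.07, 5.33 and 5.15 CPM at 36 h, against 23.5, 24.1 and 22.6 CPM in dry seeds. Its libraries formed 4 separate groups, with dry JY1605 lowest and germinated JY1605 highest. The log2 fold change was 5.25 ± 0.312 in JY1605 and -2.67 ± 0.150 in JY1621, and their difference of 7.91 ± 0.346 (SE) had an adjusted p of 1.59e-24 (edgeR's quasi-likelihood test with Benjamini-Hochberg adjustment). After 8 h at 25 °C it lay between its dry and 36 h levels in each genotype, at 5.20 ± 0.974 CPM in JY1605 and 10.9 ± 1.04 CPM in JY1621 (SD, n = 3 each).

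BnaA06G0378100ZS, on A06, stood at 2.82, 4.73 and 4.28 CPM at 36 h in JY1605, against 15.6, 12.7 and 10.9 CPM in dry seeds. In JY1621 it stood at 59.8, 35.0 and 39.8 CPM at 36 h, against 5.40, 5.97 and 6.76 CPM in dry seeds. The groups did not overlap within either genotype. The log2 fold change was -2.37 ± 0.235 in JY1605 and 2.41 ± 0.216 in JY1621, and their difference of -4.79 ± 0.319 (SE) had an adjusted p of 9.38e-12 (edgeR's quasi-likelihood test with Benjamini-Hochberg adjustment). After 8 h at 25 °C it stood above its dry level in both genotypes, at 31.3 ± 5.77 CPM in JY1605 and 65.2 ± 8.61 CPM in JY1621. After 36 h at 8 °C it stood at 72.6 ± 2.50 CPM in JY1605 and 113 ± 2.95 CPM in JY1621 (SD, n = 3 each). The low level of JY1605 at 36 h and 25 °C thus followed a higher one at 8 h. In JY1621 the mean at 36 h and 25 °C, 44.9 ± 13.2 CPM (SD, n = 3), was also below that at 8 h, though the libraries overlapped.

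Gene models present at one stage and all but absent at the other were for the most part of germinated seeds. The rule, which is a description with no test, was at most 3 counts over the 3 libraries of one stage and at least 1 CPM in each library of the other. By it, 3175 gene models of JY1605 and 534 of JY1621 were found at 36 h only, 351 of them in both genotypes. These 351 were 11.1% of those found in JY1605 and 65.7% of those found in JY1621. Found in dry seeds only were 46 gene models in JY1605 and 16 in JY1621, with 4 in both. These small counts move with single libraries. Without replicate 1, 2 or 3 of JY1605 at 36 h, 83, 156 and 84 gene models were found in dry JY1605 seeds only, and without replicate 1 of JY1621 at 36 h, the deepest library, 80 were found in dry JY1621 seeds only. Without replicate 3 of dry JY1621 seeds, 864 were found at 36 h only in JY1621. The germination-only set of JY1605 was also the larger at a stricter minimum of 5 CPM (908 in JY1605 and 81 in JY1621) and with all libraries thinned to the lowest total (3245 in JY1605 and 650 in JY1621). Thinned in this way, 141 gene models were found in dry seeds only in JY1605 and 58 in JY1621. A count of 0 to 3 in dry seeds limits detection at this depth and does not show absence.

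Most gene models of the 36 h set of JY1605 were also at or under 3 counts in dry JY1621 seeds, and their level in germinated JY1621 seeds was low. Of the 3175, 68.1% had at most 3 counts in dry JY1621 seeds, and 24.7% reached 1 CPM in all 3 JY1621 libraries at 36 h. Their median level at 36 h was 3.22 CPM in JY1605, where they were chosen, and 0.511 CPM in JY1621. In JY1621, 2083 of them passed the test as higher at 36 h, 40 as lower and 1052 were not called, where 26.2% of all tested were higher. Gene models with so few dry counts can hardly be called lower, so the share over all tested is not a like base for this set. In JY1605 itself 5.29% of the set reached 1 CPM in all 3 libraries after 8 h at 25 °C, and 48.6% still had at most 3 counts there. After 36 h at 8 °C 7.46% reached 1 CPM and 41.7% had at most 3 counts. The choice of few counts in dry seeds favours low counts in these groups too. No share of other gene models low in dry seeds was set beside these values, so they do not show that the set was late.

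The 36 h set of JY1621 was found in JY1605 more often than the reverse. Of its 534 gene models, 86.7% reached 1 CPM in all 3 JY1605 libraries at 36 h, and 509 passed the test as higher there, where 36.6% of all tested were higher. In dry JY1605 seeds 75.5% of the 534 had at most 3 counts, which favours a call as higher. The share over all tested gene models is thus not a like base for this set either. Their median level at 36 h was 8.20 CPM in JY1605 and 2.55 CPM in JY1621, where they were chosen. After 8 h at 25 °C 18.2% reached 1 CPM in all JY1621 libraries, again with no share of other gene models low in dry seeds beside it.

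The direction of change was also set beside the level in the dry seed. Gene models were put into 5 equal groups of 11589 by their level in dry seeds of the other genotype, so that the same libraries did not enter both. Gene models of the lowest group had few counts in those dry seeds and passed the filter on low counts mostly through other libraries, so their values are left out. In JY1605, 47.0% of the second group were higher at 36 h and 18.1% lower, and in the highest group 10.7% were higher and 41.9% lower. In JY1621, 33.0% of the second group were higher and 18.9% lower, and in the highest group 10.1% were higher and 29.5% lower. The median log2 fold change of the second to the fifth group was 0.97, 0.32, -0.16 and -0.68 in JY1605. The corresponding medians of JY1621 were 0.41, 0.08, -0.05 and -0.32. The filter can also bear on the second group, and this was not tested.

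The time at which these gene models changed was read from libraries of the other genotype, since comparisons within a genotype share libraries. Of the gene models higher at 36 h in JY1605, 33.9% were already higher after 8 h at 25 °C in JY1621, against 22.2% of all tested, and 33.5% were higher at 36 h than at 8 h there, against 15.9% of all tested. Of those lower in JY1605, 39.5% were lower after 8 h in JY1621 (19.4% of all tested) and 21.8% were lower at 36 h than at 8 h (10.4% of all tested). Both steps therefore held changes of the set, each above its share over all tested gene models.

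The sets of JY1621 were placed in the same way in JY1605. Of the gene models higher at 36 h in JY1621, 54.0% were higher after 8 h at 25 °C in JY1605 (24.7% of all tested) and 48.1% were higher at 36 h than at 8 h (29.6% of all tested). Of those lower in JY1621, 62.9% were lower after 8 h in JY1605 (20.8% of all tested) and 50.3% were lower at 36 h than at 8 h (26.1% of all tested). Seeds kept in the cold for 36 h were compared with dry seeds in the same manner. After 36 h at 8 °C in JY1605, 52.8% of the set higher in JY1621 were higher than in dry seeds (26.6% of all tested) and 62.2% of the set lower in JY1621 were lower (23.7% of all tested). In JY1621, 38.2% of the set higher in JY1605 were higher after 36 h at 8 °C (25.5% of all tested) and 43.1% of the set lower were lower (22.1% of all tested).

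Most chromosomes changed alike. On 17 of the 19 chromosomes 34.8% to 40.5% of tested gene models were higher and 19.7% to 27.3% lower at 36 h in JY1605. A05 stood apart, where 27.9% rose and 41.5% fell in JY1605, and 22.7% rose and 32.1% fell in JY1621. On A09, 34.5% rose and 30.8% fell in JY1605, and 25.6% rose and 23.7% fell in JY1621. Of the 1203 tested gene models on unplaced scaffolds, 4.16% were higher and 82.5% lower in JY1605, and 7.48% were higher and 52.7% lower in JY1621.

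**Figure D4:**
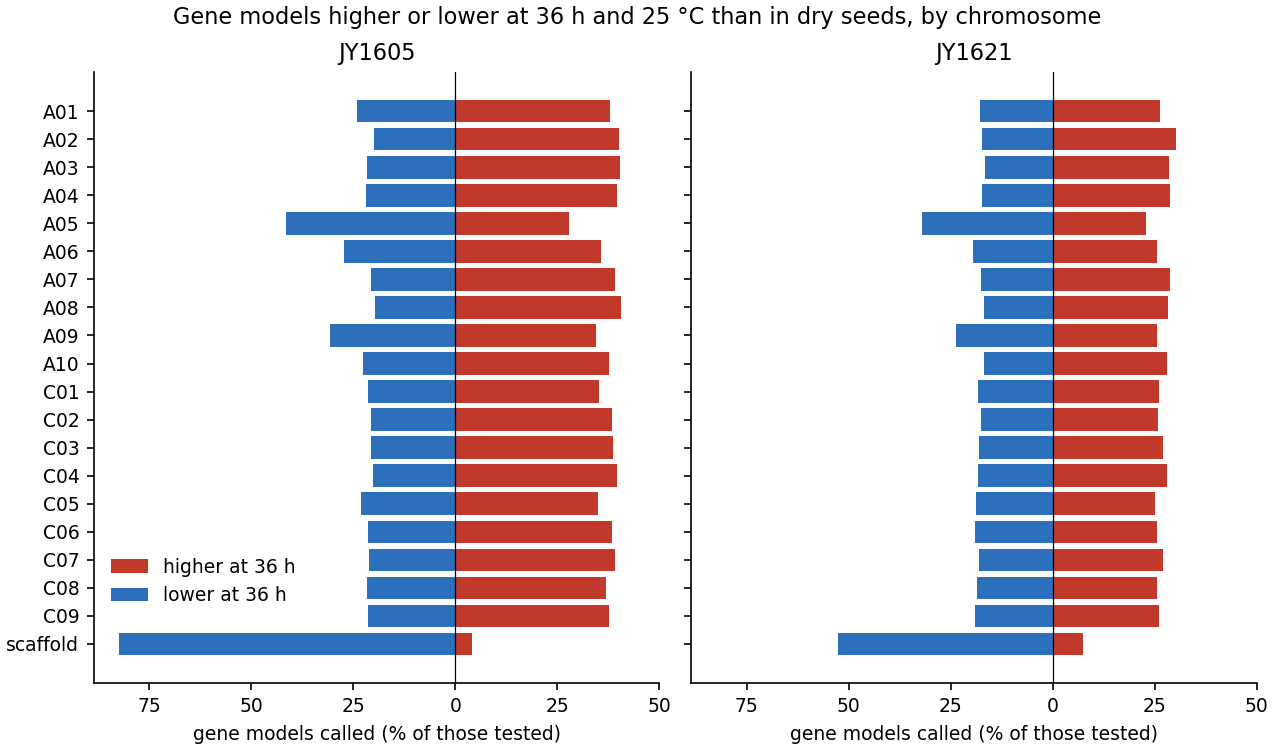
Percent of tested gene models called higher (red, to the right) and lower (blue, to the left) at 36 h and 25 °C than in dry seeds, by chromosome and for unplaced scaffolds, in JY1605 and JY1621. A05, A09 and the scaffolds have longer blue bars than the other chromosomes, with 82.5% of the scaffold models lower in JY1605 and 52.7% in JY1621.

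On A05 and A09 many falls lay in closed stretches of neighbouring gene models. In windows of 50 tested gene models in the order of their IDs, 39 of 1134 windows had a median difference between the genotypes below -1, and 0 had one above 1. They formed 5 stretches: positions 1151 to 2000 of the 3226 tested on A05, 1601 to 2250 of 4436 on A09, 1301 to 1550 of 2891 on A06, 1551 to 1700 of 2656 on A01, and 451 to 500 of 3008 on C08. On A05, 837 of the 850 gene models of the stretch were lower at 36 h in JY1605 and 0 higher, and 625 were lower in JY1621 and 58 higher. The stretch held 62.5% of the lower calls of A05 in JY1605 and 60.4% in JY1621, and that of A09 held 45.1% in JY1605 and 44.6% in JY1621. Outside its stretch, A05 had 21.1% of tested gene models lower in JY1605 and 17.3% in JY1621, and A09 had 19.8% lower in JY1605 and 15.4% in JY1621. The longest unbroken run of lower calls in JY1605 was 240 neighbouring gene models, on A05. In JY1621 the longest was 20, on A06, while the longest run of higher calls was 13 in JY1605 and 10 in JY1621.

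Within the stretches of A05 and A09 most gene models fell by a similar amount. The median log2 fold change in the A05 stretch was -3.86 in JY1605, where the middle 50% of gene models lay between -4.30 and -3.48, and -1.29 in JY1621, where they lay between -1.51 and -0.99. The A09 stretch had a median of -3.75 in JY1605, with its middle 50% between -4.29 and -3.36, and of -1.26 in JY1621. The A06 and A01 stretches had medians of -3.67 and -3.66 in JY1605 with a wider spread, their middle 50% reaching up to -2.42 and -2.24, and medians of -1.21 and -1.09 in JY1621. The single window on C08 was mixed, with 54.0% lower in JY1605 and a median of -1.55, where the middle 50% lay between -3.59 and 0.65, and a median of -0.89 in JY1621. Scaffold models had medians of -3.57 in JY1605 and -1.05 in JY1621. The dense spot away from the main cloud, in the plot of the changes of both genotypes, lies near the medians of A05, A09, A06, A01 and the scaffolds.

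The stretches and scaffolds, 3153 gene models in all, had low counts at 36 h and not in dry seeds, by comparison with the other tested gene models. Their median level was 0.402, 0.503 and 0.433 CPM at 36 h in JY1605, against 3.51, 3.42 and 3.37 CPM in dry seeds. In JY1621 it was 2.34, 2.64 and 2.58 CPM at 36 h, against 4.19, 3.73 and 4.20 CPM in dry seeds. The other 54792 tested gene models had a median of 5.53 CPM at 36 h and 2.25 CPM in dry seeds of JY1605, and of 4.06 CPM at 36 h and 2.46 CPM in dry seeds of JY1621 (means over 3 libraries). Parts of the set departed from this. The scaffold models alone lay under the other models in dry seeds too, at 1.89 CPM in JY1605 and 2.24 CPM in JY1621. At 36 h in JY1621 the A01 and C08 stretches lay above the other models, at 5.74 and 5.65 CPM. Together the 3153 held 0.457% ± 0.0214 of the counts of JY1605 at 36 h and 2.28% ± 0.0491 in dry seeds, and 1.47% ± 0.0826 of those of JY1621 at 36 h and 2.46% ± 0.0902 in dry seeds (SD, n = 3 each). The dry levels of the genotypes were thus closer to each other than the 36 h levels. Since the stretches were chosen by their values, this is a description. None of the 6 named gene models lies in them. Coverage of introns and intergenic sequence was not analysed here, so whether these counts are of transcripts or in part of genomic DNA was not tested.

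Outside the stretches and scaffolds, the subgenomes changed to a similar extent. In JY1605, 39.4% of the A models were higher and 20.9% lower, and 37.7% of the C models were higher and 21.2% lower. In JY1621, 28.5% of the A models were higher and 16.6% lower, and 26.3% of the C models were higher and 18.4% lower. The shares of gene models with a difference between the genotypes shifted more. Of those outside, 10630 had a more positive change in JY1605 and 8138 a more negative one, whereas over all tested gene models the directions were near balance. The stretches were chosen for a more negative change in JY1605, so leaving them out shifts this balance by construction. This balance also moved with the scaling: by library size alone, 57.2% of the difference calls over all tested were more positive in JY1605. On C01 a single window, positions 1801 to 1850, had a median log2 fold change of -1.61 in JY1605 and -1.29 in JY1621, so that it was low in both genotypes to a like extent.

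**Figure D5:**
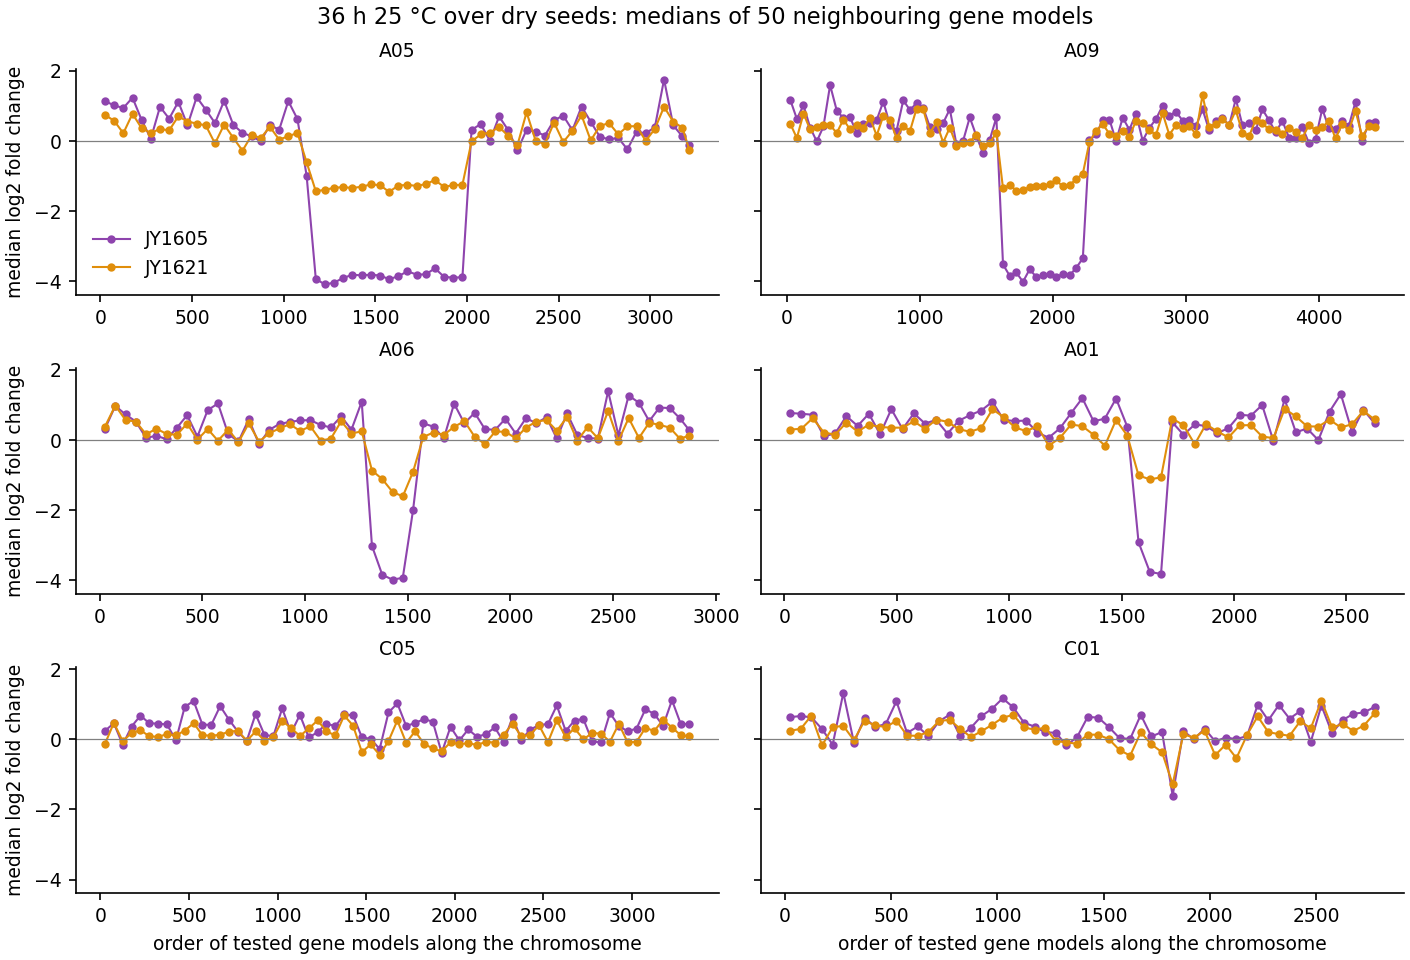
Median log2 fold change at 36 h and 25 °C over dry seeds in windows of 50 neighbouring tested gene models, in the order of their IDs along A05, A09, A06, A01, C05 and C01, for JY1605 (purple) and JY1621 (orange). In the stretches of A05, A09, A06 and A01 the line of JY1605 drops to as low as -4.09 and that of JY1621 to as low as -1.60, while C05 shows no such stretch and C01 has 1 low window in both.

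For a smaller set of gene models the change was bounded to under 1 log2 unit in either direction. The 95% interval of the log2 fold change lay within 1 unit on either side of 0 for 12079 gene models in JY1605 (20.8% of those tested), for 15918 in JY1621 (27.5%), and for 7510 in both (13.0%). The 7510 held 23.5% ± 0.286 of the counts of JY1605 at 36 h and 14.9% ± 0.160 in dry seeds, and 24.0% ± 0.347 of those of JY1621 at 36 h and 16.4% ± 0.293 in dry seeds (SD, n = 3 each). Their share of the counts was thus larger at 36 h although their scaled levels were bounded. The bounds hold for levels scaled by TMM factors, and other scalings were not tried for this set. The scaling factors that allow for composition were 1.17 to 1.19 at 36 h and 0.732 to 0.758 in dry seeds of JY1605, and 1.10 to 1.16 at 36 h and 0.796 to 0.805 in dry seeds of JY1621.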

How the data were processed

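The deposited values are raw gene counts, made by the authors and given as whole numbers whose totals differ between libraries. The submitters' processing notes name the tools HISAT2 2.2.1 and featureCounts 2.0.6, and also DESeq2 1.42.0. No source used here gives the genome build, the counting parameters or the strand setting, so reads of overlapping genes and of homoeologous copies could not be separated further.

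Groups came from the sample labels. Counts were tested with edgeR 4.0.16 in R 4.3.3 (robust quasi-likelihood F-test, TMM factors), and a single model with a mean for each group was fitted to all 30 libraries. Gene models were kept by filterByExpr (minimum count 10, minimum total 15), which left 57945. These hold 99.8% to 99.9% of the counts of each of the 12 libraries. Calls needed a Benjamini-Hochberg adjusted p under 0.05 and a log2 fold change of 1 or more in either direction. Standard errors came from the weights and the quasi-dispersion of the fit, and 95% intervals from these. The functions were tested on simulated data. CPM values are counts divided by the library total and multiplied by 1000000. A group with no count was given a floor of 3 counts over the group, and such bounds and intervals cover counting error alone, because reads need not stem from separate molecules.

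The named gene models were, in each direction, the 2 with the largest smaller-of-both change among those called alike in JY1605 and JY1621 and averaging 8 CPM or more over the 12 libraries. Among those called opposite ways that also passed the test of the difference, 1 was named for each direction by the same measure. The members, classes and rules were chosen with earlier results of these data known. Alternatives were median-of-ratios factors, library size scaling, no filter, the 12 libraries alone, a replicate block, no fold minimum, a test against the fold minimum (glmTreat), each library left out in turn, the deepest library thinned, the DESeq2 1.42.0 Wald test, other limits for stage-only gene models, thinned libraries and windows of 100. One was added after seeing the data, which leaves out the falling stretches and the scaffolds.

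Gene names and sequences were not used here, since no table pairs them with these IDs.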

Additional observations from a re-analysis of the deposited data

Results flagged for a closer look

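The change by 36 h differed between the genotypes by its own test for 21490 gene models. For 10677 of them the log2 fold change was more positive in JY1605 than in JY1621, and for 10813 it was more negative. With the gene models of the falling stretches and the unplaced scaffolds left out and the p-values adjusted again over the rest, 10569 were more positive in JY1605 and 8110 more negative. The stretches were chosen for a more negative change in JY1605, so this shift follows at least in part from that choice.

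For 3 of the 6 named gene models the genotypes differed by the same test. BnaC05G0194700ZS and BnaA06G0378100ZS were named from gene models that had already passed it, so their passing is no separate result. The log2 fold change of BnaC05G0194700ZS was higher in JY1605 than in JY1621 by 7.91, and the genotypes changed in opposite directions. For BnaA06G0378100ZS the difference was -4.79, again with opposite directions. For BnaA01G0307200ZS, which fell in both, the difference was -2.06. Each of the 3 kept its direction and its call when any 1 of the 12 libraries was left out.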

How the results depend on the processing

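The counts of higher and lower gene models in JY1605 stayed within 1.5 times of those reported under every alternative run. Some settings moved other counts further. With library size scaling only, 6765 were lower in JY1621, 17736 higher in both genotypes and 4590 lower in both. With no fold minimum, 18213 were lower in JY1621, 13550 lower in both, 1649 higher in JY1605 and lower in JY1621, and 2256 the other way. In the glmTreat test against a log2 fold change of 1, the counts for opposite changes were 141 and 171. There 5912 gene models had a more positive change in JY1605 and 7563 a more negative one. The share of difference calls that were more positive in JY1605 was 49.7% as reported, 43.9% with glmTreat and 57.2% with library size scaling only. The balance of the difference thus depends on the setting. The share of counts of the 100 most abundant gene models differed by -20.7 percentage points in JY1605 (36 h minus dry), and by -19.4 without each library's single most abundant gene model.

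Gene models found at 36 h only numbered 908 in JY1605, 81 in JY1621 and 49 in both at a minimum of 5 CPM. Those of dry seeds only numbered 3 in JY1605, 0 in JY1621 and 0 in both at that minimum, and 141, 58 and 16 with libraries thinned to the lowest total. With 1 library left out at a time, the 36 h only set ran from 3285 to 3888 in JY1605 and from 561 to 864 in JY1621, and the dry only set from 54 to 156 in JY1605 and from 17 to 80 in JY1621. Fewer libraries behind the limit of 3 counts, or fewer reads, let more gene models pass it.

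The named gene models kept their direction and call under every alternative, with adjusted p-values from edgeR or DESeq2. In JY1605, leaving out single libraries gave 21216 to 21997 higher and 14268 to 14563 lower gene models, and DESeq2 called 20806 higher and 14346 lower. In JY1621, leaving out single libraries gave 14853 to 15522 higher and 11156 to 11731 lower, and DESeq2 called 14655 higher and 11937 lower. Deviations of libraries with the same replicate number correlated at -0.043 to 0.002, which gives no sign of pairing by number. A pairing with little effect on the counts would not be seen in this way. With the replicate block, JY1605 had 21174 higher and 14304 lower gene models, JY1621 had 15115 higher and 11576 lower, and 10557 and 10709 differed between genotypes. The limits are depth in dry seeds, 3 libraries a group, and sampling times that differ in time of day.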
